A study of Mus musculus with 14 samples.

Results

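Nppa and Nppb, the genes of atrial and B-type natriuretic peptide, were examined together with Myl4, Myl7 and Sln, 3 genes that mark atrial heart muscle. The 5 genes were chosen by symbol, and each was represented by its most abundant listed transcript. In the hearts of the AAV experiment 3 of them (Nppa, Nppb and Myl4) had values, out of 13219 genes, and in the table for KO and WT hearts Nppa had values, out of 1230 listed genes. Myl7 and Sln were not analysed here, since neither symbol nor annotated transcript matched a row that was used.

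The hearts came from male C57BL/6J mice fed a high-fat diet (HFD, 60% of energy as fat) from 7 to 9 weeks of age. The diet lasted 12 weeks and ended with a 6 h fast. In the overexpression experiment, 4 AAV-CTRP9 hearts were compared with 3 AAV-Luc hearts. The deposited titles of the 3 AAV-Luc samples read CTRP9, while their descriptions read Luc and their treatment label AAV Luciferase. The groups follow the treatment label. All 7 mice carried the WT genotype and had received 1e12 genomes of an AAV9 vector into the tail vein, which expressed either C1qtnf9 (encoding the secreted glycoprotein CTRP9) or luciferase from a troponin T promoter, a promoter of heart muscle cells. In the knock-out experiment, 4 hearts of homozygous CTRP9 KO mice were compared with 3 hearts of WT littermates, all on HFD and without a vector. All groups were on HFD, so no value here describes the effect of the diet. Each experiment has its own table and scaling, and levels were not compared between them.

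Natriuretic peptides are hormones of heart muscle that are released when the wall is stretched. They bind guanylyl cyclase receptors, raise cGMP in target cells and lower blood volume and pressure. In the adult heart, atrial muscle holds far more Nppa than healthy ventricular muscle does, while ventricles switch on Nppa and Nppb under load. Myl4 and Myl7 encode the essential and regulatory myosin light chains of atrial muscle, and Sln encodes sarcolipin, an inhibitor of the sarcoplasmic calcium pump that is abundant in atria. The question asked of these genes was therefore whether Nppa and Nppb followed an atrial gene from heart to heart. In bulk tissue, more cells of a type and more RNA per cell cannot be told apart.

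Nppb and Nppa are neighbours on the plus strand of mouse chromosome 4. On GRCm38 (mm10), Nppb spans chr4:147985788-147987205 and Nppa chr4:148000722-148002079, with 13516 bases between them, and each has 1 annotated transcript of 3 exons. Myl4 lies at chr11:104550663-104595753 with 8 annotated transcripts. Myl7 lies at chr11:5896637-5898782 on the minus strand and Sln at chr9:53850164-53854560.

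The promoter of Nppa and a stretch before the RefSeq start of Nppb are shown. These neighbouring genes are known targets of the same heart transcription factors and were read out in the same hearts. Both come from RefSeq (GRCm38.p6, plus strand, 5′ to 3′): the 250 bases before the start of Nppa (chr4:148000472-148000721) and 27 bases of Nppb (chr4:147985795-147985821). Capitals mark matches to the motifs searched.
Nppa: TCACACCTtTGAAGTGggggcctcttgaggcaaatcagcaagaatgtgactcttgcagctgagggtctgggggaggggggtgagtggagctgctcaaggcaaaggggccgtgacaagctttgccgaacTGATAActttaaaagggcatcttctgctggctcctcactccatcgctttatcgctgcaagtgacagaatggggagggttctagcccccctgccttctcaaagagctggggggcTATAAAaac
Nppb: GGAATGcagcTGATAAatcagAGATAA

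Motifs were searched in the 250 bases before each RefSeq start, on both strands except for the TATA box. In Nppa, capitals mark a T-box motif (AGGTGTGA, read on the minus strand) at position -250, an NKX2-5 motif (TNAAGTG) at -241, a GATA motif (TGATAA) at -122 and a TATA box (TATAAA) at -9, counted back from the start. In the Nppb stretch they mark a TEAD motif (GGAATG) at -105 and GATA motifs (TGATAA and AGATAA) at -95 and -84, and a TATA box lay at -31. The RefSeq start of Nppb lies 112 bases inside the GENCODE transcript, so these positions depend on the annotation. The motif searches found 0 matches in the window of Myl4, and a TEAD motif at -70 and a GATA motif (TGATAA) at -42 in that of Myl7. Among 32851 RefSeq windows of the same length, 9.99% held AGATAA, 7.94% TGATAA, 10.1% TNAAGTG, 1.12% AGGTGTGA, 12.6% GGAATG and 7.59% TATAAA. A match describes these letters only, and binding was not measured.

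Between 23626917 and 30262264 scaled reads stood behind each AAV heart, and between 14978278 and 18959587 reads behind each KO or WT library. C1qtnf9 checked the labels: it averaged 69.9 ± 27.5 CPM (reads scaled to a common library size) in AAV-CTRP9 hearts and 20.4 ± 5.29 CPM in AAV-Luc hearts (SD, n = 4 and 3), without overlap. Its log2 fold change was 1.73 (standard error 0.26). The limma adjusted p was 0.106 and the exact permutation p 0.0286, so the overexpressed gene itself did not pass the adjusted test. C1qtnf9 had 3 reads in all KO libraries together and between 481 and 498 in each WT library. All 6 cardiomyocyte markers tested for were measured in the AAV hearts, and 0 of 9 skeletal muscle markers had a value. AAV-Luc heart 1 stood apart in base composition: its genes deviated upward with GC content (Spearman rho 0.517 across genes), while the other 6 hearts had values from -0.274 to -0.108.

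Nppa did not pass the test after CTRP9 overexpression, and its range among AAV-Luc hearts was wider than the difference between the group means. Nppa had 33.0, 26.6, 16.3 and 19.9 CPM in AAV-CTRP9 hearts 1 to 4, against 51.7, 17.2 and 59.1 CPM in AAV-Luc hearts 1 to 3. AAV-Luc hearts 1 and 3 lay above all AAV-CTRP9 hearts, whereas AAV-Luc heart 2 lay near the lowest of them, so the groups overlapped. Nppa averaged 23.9 ± 7.39 CPM in AAV-CTRP9 hearts and 42.6 ± 22.4 CPM in AAV-Luc hearts (SD, n = 4 and 3). The log2 fold change of AAV-CTRP9 over AAV-Luc was -0.70 (standard error 0.38, 95% interval -1.53 to 0.14, limma adjusted p = 0.622), and the 2-sided exact permutation test over 35 splits gave p = 0.257. The smallest p this permutation test can give is 0.0286.

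Single AAV-Luc hearts set the size of this difference. Without AAV-Luc heart 2 the log2 fold change of Nppa was -1.26 (limma adjusted p = 0.173), without heart 3 it was -0.37 and without heart 1 it was -0.46. The direction stayed below 0 in each of the 7 fits that left out 1 heart. By edgeR's quasi-likelihood test on recovered reads the unadjusted p of Nppa was 0.0366 and the adjusted p 0.577.

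Reads of Nppa could not be separated from those of an antisense gene. Gm13054, annotated on the opposite strand at chr4:148001091-148004014, shares 532 of its 820 exon bases with the 865 exon bases of Nppa. It had 773, 741, 463 and 557 reads in AAV-CTRP9 hearts 1 to 4, against 1555, 482 and 1551 reads in AAV-Luc hearts 1 to 3. Nppa had 778, 752, 463 and 562 reads in AAV-CTRP9 hearts 1 to 4, against 1564, 480 and 1555 reads in AAV-Luc hearts 1 to 3. The counts differed by at most 11 reads in a heart. The library kit marks strand, but the sources used here do not say whether counting used it, and how the reads divide between the genes was not tested.

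Nppb did not pass the test either, and AAV-CTRP9 heart 4 was low. Nppb had 46.8, 41.5, 32.1 and 14.4 CPM in AAV-CTRP9 hearts 1 to 4, against 54.4, 32.0 and 29.5 CPM in AAV-Luc hearts 1 to 3. AAV-Luc heart 1 was the highest of all hearts, AAV-CTRP9 heart 4 the lowest, and the groups overlapped. Nppb averaged 33.7 ± 14.3 CPM in AAV-CTRP9 hearts and 38.6 ± 13.7 CPM in AAV-Luc hearts (SD, n = 4 and 3). The log2 fold change was -0.27 (standard error 0.35, 95% interval -1.06 to 0.51, limma adjusted p = 0.86, exact permutation p = 0.714). It was 0.09 without AAV-CTRP9 heart 4 and 0.00 without AAV-Luc heart 1, so its direction depended on single hearts.

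Myl4 was the 1 atrial light chain gene with values, and its 1 listed transcript, of 8 annotated, was low and even. Myl4 had 1.60, 1.59, 1.54 and 1.56 CPM in AAV-CTRP9 hearts 1 to 4, against 1.66, 1.43 and 1.52 CPM in AAV-Luc hearts 1 to 3. The AAV-CTRP9 hearts lay within the range of the AAV-Luc hearts. These levels rested on 37, 44, 43 and 43 reads in the AAV-CTRP9 hearts, against 49, 39 and 39 reads in the AAV-Luc hearts. Myl4 averaged 1.57 ± 0.028 CPM in AAV-CTRP9 hearts and 1.53 ± 0.115 CPM in AAV-Luc hearts (SD, n = 4 and 3). The log2 fold change was 0.04 (standard error 0.18, 95% interval -0.36 to 0.44, limma adjusted p = 0.969, exact permutation p = 0.543). Scaled to library totals alone, or without AAV-Luc heart 2, it was -0.01.

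**Figure D1:**
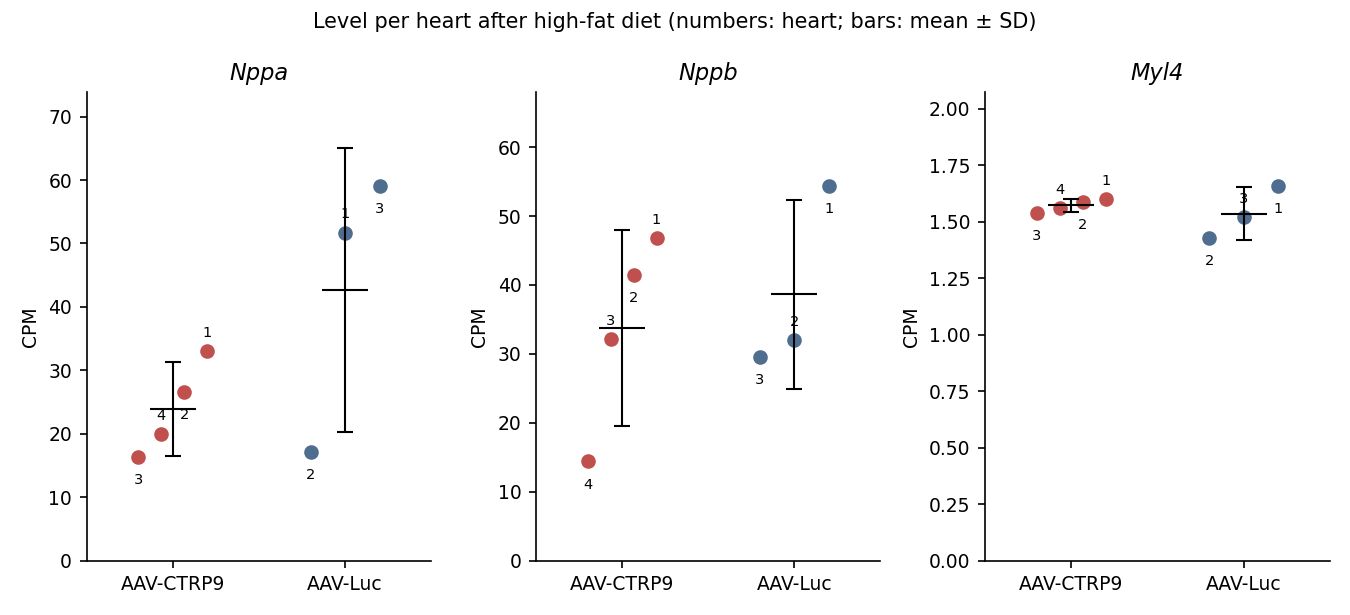
Level of Nppa, Nppb and Myl4 in CPM (linear axes from 0) in each AAV-CTRP9 heart (left, n = 4) and AAV-Luc heart (right, n = 3). Points are hearts numbered within their group, and bars give mean ± SD. The groups overlap for each gene, Nppa and Nppb range over 3.63-fold and 3.79-fold across hearts, and Myl4 over 1.16-fold.

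With limma, 0 of the 3 measured genes passed an adjusted p of 0.05, a threshold that 0.0151% of all genes passed (2 of 13219, Lyz2 and Cd248, both lower in AAV-CTRP9 hearts). At an unadjusted p under 0.05 the count was also 0 of 3, beside 8.67% of all genes. Adjusted p-values from edgeR and DESeq2 on recovered reads called 0 of the 3 as well. These tests do not show that the genes were equal between the groups, and each interval above holds changes in both directions.

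Nppa and Nppb were among the genes that varied most between hearts of the same group. The SD within groups on the log2 CPM scale was 0.71 for Nppa, 0.67 for Nppb and 0.07 for Myl4, and the median over all genes was 0.17. Only 112 of 13219 genes exceeded Nppa and 142 exceeded Nppb. Among genes of similar level (within 0.5 log2 units) 3 of 1681 exceeded Nppa and 6 of 1437 exceeded Nppb. Counting error alone corresponds to a log2 SD of 0.05 for each peptide gene. Myl4 went the other way. Its counting SD of 0.22 exceeded its SD between hearts, its chi-square over 7 hearts was 0.587 with 6 degrees of freedom, and 1642 of 1643 genes of similar level varied more.

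**Figure D2:**
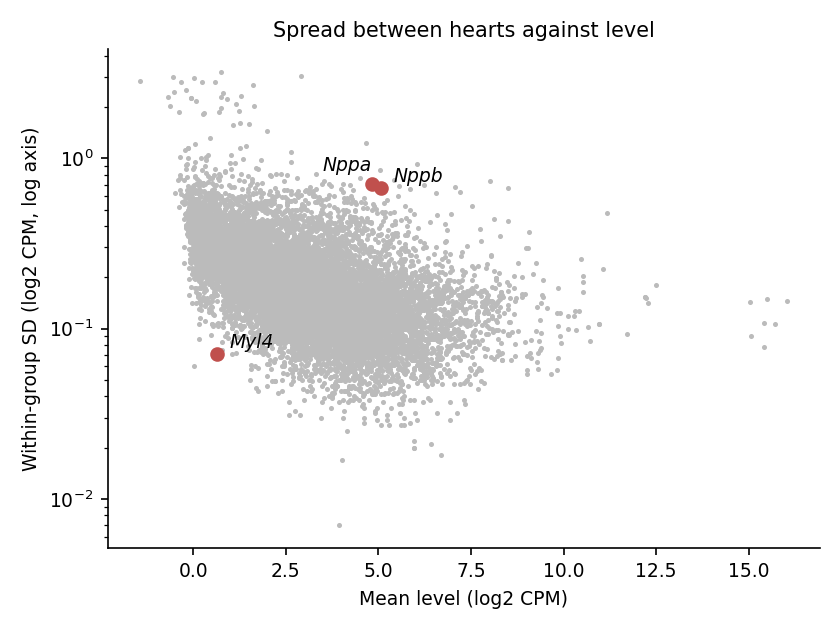
Within-group SD between hearts (log2 CPM, log axis) against mean level (log2 CPM) for 13219 genes in 7 AAV hearts. Gray points are genes, with Nppa, Nppb and Myl4 in red. Nppa (0.71) and Nppb (0.67) sit at the upper edge for their level and Myl4 (0.07) at the lower edge.

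Per transcript length, the peptide genes stood well above Myl4. Nppa ranged over 18.8 to 68.3 CPM per kb with a median of 30.8, Nppb over 18.4 to 69.6 with a median of 41.1 and Myl4 over 1.62 to 1.88 with a median of 1.77. The ranges of Nppa and Nppb across hearts overlapped almost fully, and both lay clear of Myl4. The level of Myl4 covers 1 of its 8 annotated transcripts, whereas each peptide gene has 1 annotated transcript. The ratio of Nppb to Nppa per kb was 1.57, 1.73, 2.19 and 0.799 in AAV-CTRP9 hearts 1 to 4, against 1.16, 2.06 and 0.554 in AAV-Luc hearts 1 to 3. The ratio was below 1 in AAV-CTRP9 heart 4 and AAV-Luc heart 3 alone. It takes the reads listed for Nppa as they stand, and which of the pair was more abundant is not settled, since reads of Nppa and Gm13054 were not separated.

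Neither peptide gene passed the test of correlation with Myl4 across the 7 hearts. The log2 CPM of Nppa and Myl4 had Pearson r = 0.47 (exact permutation p = 0.299, adjusted 0.55) and Spearman rho = 0.39 (exact permutation p = 0.396, adjusted 0.806). Without the 2 hearts farthest from the median of Myl4 (AAV-Luc hearts 1 and 2) r was -0.25, so the relation rests on those hearts. For deviations from the group means r was 0.76. With library totals as the scaling r was 0.80 (exact permutation p = 0.0214), without AAV-Luc heart 3 it was 0.81 (p = 0.0486, exact permutation), and with the GC trend removed it was 0.31. Adjustment covered 57 relations between the peptide genes and atrial, ventricular and stretch genes.

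Nppb and Myl4 had r = 0.43 (exact permutation p = 0.325, adjusted 0.567) and rho = 0.75 (exact permutation p = 0.0663, adjusted 0.54). Without the same 2 hearts r was 0.48, and for deviations from the group means it was 0.54. Without AAV-Luc heart 1 it was 0.19, with the GC trend removed it was 0.12, and without AAV-CTRP9 heart 4 it was 0.84 (exact permutation p = 0.0264). Since the reads of Myl4 varied less than counting alone gives, the order of hearts by Myl4 is not resolved at this depth, and these coefficients describe 7 hearts only.

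The 2 peptide genes, although neighbours, did not track each other closely. Nppa and Nppb had r = 0.43 (exact permutation p = 0.351, adjusted 0.572) and rho = 0.25 (exact permutation p = 0.595, adjusted 0.892), and r was 0.02 without AAV-CTRP9 heart 4 and AAV-Luc heart 1. Of 13124 genes with a mean CPM of at least 1, 16.7% had an r with Nppa at least as high as that of Nppb. Negative coefficients do not count in this share. The share with an r at least as high as that of Myl4 was 14.7% for Nppa and 18.4% for Nppb. AAV-Luc heart 1 was high in both peptides, and AAV-Luc heart 3 was highest in Nppa and among the lower hearts in Nppb.

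**Figure D3:**
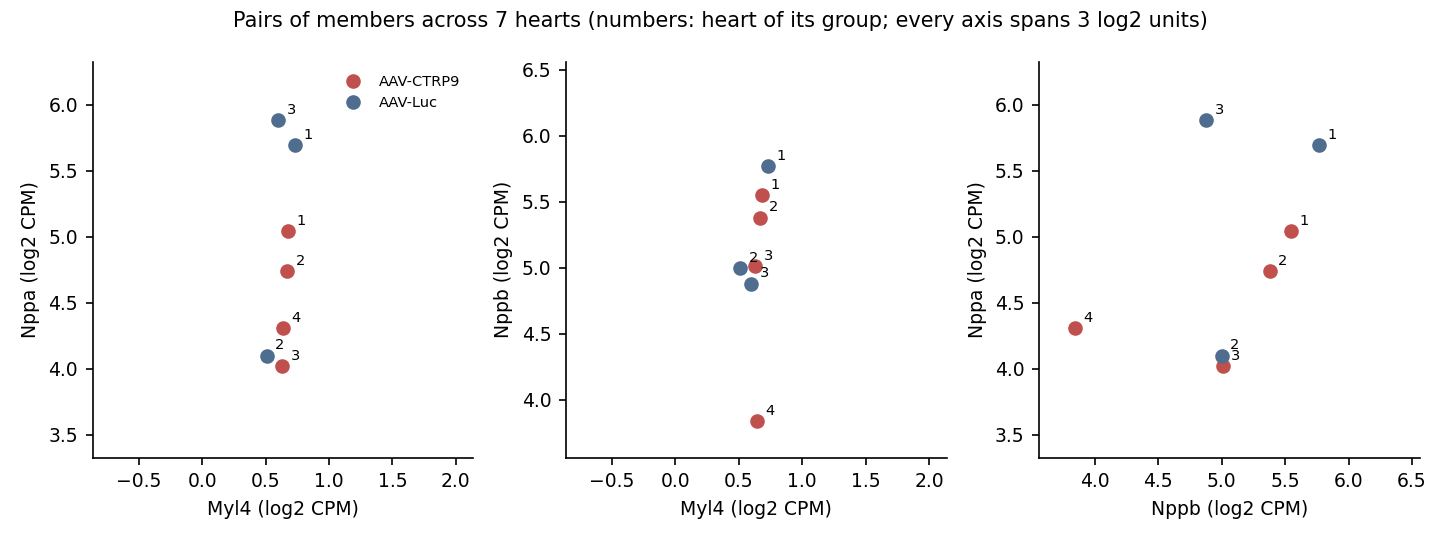
Log2 CPM of Nppa against Myl4, Nppb against Myl4 and Nppa against Nppb, with AAV-CTRP9 hearts in red and AAV-Luc hearts in blue, numbered within their group. Every axis spans 3 log2 units, so the narrow column of points shows how little Myl4 varied. Pearson r is 0.47, 0.43 and 0.43 from left to right.

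A wider list of 15 atrial genes gave 12 with values, and these went both ways with the peptides. With Nppa, 7 of the 12 had r above 0 and 5 below, with a median of 0.20 beside -0.09 over 13124 genes. With Nppb, 6 had r above 0 and 6 below, with a median of 0.02 beside 0.01 over the same genes. The strongest relation was a negative one. Kcnj3, a subunit of the acetylcholine-gated potassium channel of atrial and pacemaker cells, had r = -0.94 with Nppa (exact permutation p = 0.00437, adjusted 0.249), rho = -0.89 (exact permutation p = 0.0123, adjusted 0.234) and r = -0.83 without AAV-Luc hearts 1 and 3. Kcnj3 had 40.7, 38.4, 44.3 and 42.9 CPM in AAV-CTRP9 hearts 1 to 4, against 32.2, 45.0 and 34.5 CPM in AAV-Luc hearts 1 to 3. It was thus lowest in AAV-Luc hearts 1 and 3, where Nppa was highest. None of the 57 relations passed an adjusted p of 0.05 (the smallest was 0.249, exact permutation), and the smallest unadjusted one was that of Kcnj3.

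Ventricular genes gave coefficients of both signs with Nppa and with Nppb. With Nppa, 3 of 8 had r above 0 and 5 below, with a median of -0.69 beside -0.09 over 13124 genes. With Nppb, 4 had r above 0 and 4 below, with a median of -0.02 beside 0.01 over the same genes. Fhl2, a LIM protein of heart muscle, had r = -0.87 with Nppa (exact permutation p = 0.0149, adjusted 0.272), rho = -0.82 (exact permutation p = 0.0341, adjusted 0.486) and r = -0.84 without AAV-CTRP9 heart 4 and AAV-Luc heart 3. Kcnip2, the subunit of the transient outward potassium channel, had r = 0.84 with Nppb (exact permutation p = 0.0109, adjusted 0.272), rho = 0.93 (exact permutation p = 0.00675, adjusted 0.192) and r = 0.85 without AAV-CTRP9 heart 4 and AAV-Luc heart 2. These pairs were singled out after their values were seen.

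The summed CPM of the 12 atrial genes lay between 286 and 301 in AAV-CTRP9 hearts and between 297 and 309 in AAV-Luc hearts. This sum was highest in AAV-Luc heart 3, but that place rests on Pam, the most abundant of the 12. Pam had 144 to 156 CPM in AAV-CTRP9 hearts, against 157, 147 and 176 CPM in AAV-Luc hearts 1 to 3. The 8 ventricular genes summed to between 5136 and 5355 CPM in AAV-CTRP9 hearts, against 4857, 5028 and 4088 CPM in AAV-Luc hearts 1 to 3. The lowest sum belonged to AAV-Luc heart 3, the heart with the most Nppa. The 5 erythroid markers summed to between 118 and 184 CPM in AAV-CTRP9 hearts, against 139, 272 and 724 CPM in AAV-Luc hearts 1 to 3. Their highest sum was also in AAV-Luc heart 3. The 5 leukocyte markers summed to between 55.0 and 63.5 CPM in AAV-CTRP9 hearts and to between 85.6 and 88.4 CPM in AAV-Luc hearts. The part of these cell types in the level of Nppa was not tested.

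By group, 0 of the 12 atrial genes passed the adjusted limma test (0.0151% of all genes did), with a median log2 fold change of -0.08 beside 0.03 over all genes. At an unadjusted p under 0.05, 1 of them was lower, beside 4.36% of all genes. That gene was Dkk3, a secreted protein of the Dickkopf family, with 1.18, 0.815, 0.562 and 0.460 CPM in AAV-CTRP9 hearts 1 to 4, against 1.39, 1.07 and 1.33 CPM in AAV-Luc hearts 1 to 3. The level of Dkk3 was set by 12 to 41 reads a heart, its groups overlapped, and its log2 fold change was -0.83 (standard error 0.34, limma adjusted p = 0.559). For Kcna5, a potassium channel of the atrial action potential, the log2 fold change was -0.19 (standard error 0.14, limma adjusted p = 0.698). Nr2f2, a nuclear receptor that specifies atrial identity in the mouse, had one of -0.14 (standard error 0.11, limma adjusted p = 0.706), and Kcnj3 one of 0.17 (standard error 0.11, limma adjusted p = 0.683).

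Of the 8 ventricular genes, 0 passed the adjusted limma test (0.0151% of all genes did). At an unadjusted p under 0.05, 1 of them, Pln, was higher, beside 4.3% of all genes. Pln encodes phospholamban, the ventricular counterpart of sarcolipin as inhibitor of the calcium pump, and averaged 2120 ± 84.2 CPM in AAV-CTRP9 hearts and 1810 ± 198 CPM in AAV-Luc hearts (SD, n = 4 and 3). Its log2 fold change was 0.24 (standard error 0.09, limma adjusted p = 0.539). Myl2, the regulatory light chain of ventricular muscle, had 1550, 1521, 1583 and 1660 CPM in AAV-CTRP9 hearts 1 to 4, against 1514, 1477 and 1057 CPM in AAV-Luc hearts 1 to 3. All AAV-CTRP9 hearts lay above all AAV-Luc hearts, as was so for 9.02% of all genes in either direction, and the log2 fold change was 0.24 (standard error 0.12, limma adjusted p = 0.6).

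The pathway around the peptides gave no call. Of 15 genes 13 had values, and 0 passed the adjusted limma test (0.0151% of all genes did). At an unadjusted p under 0.05 the count was also 0, beside 8.67% of all genes. The median log2 fold change was 0.08 beside 0.03 over all genes. Corin, the membrane protease that cuts the precursor of atrial natriuretic peptide, had 102, 101, 102 and 110 CPM in AAV-CTRP9 hearts 1 to 4, against 86.3, 105 and 96.0 CPM in AAV-Luc hearts 1 to 3. The groups overlapped, and the log2 fold change was 0.12 (standard error 0.08, limma adjusted p = 0.683). Npr1, the guanylyl cyclase receptor of both peptides, averaged 16.4 ± 1.31 CPM in AAV-CTRP9 hearts and 17.4 ± 0.99 CPM in AAV-Luc hearts, and Npr3, the clearance receptor, averaged 4.93 ± 0.614 CPM in AAV-CTRP9 hearts and 4.47 ± 1.42 CPM in AAV-Luc hearts (SD, n = 4 and 3). Log2 fold changes were -0.08 (standard error 0.09) for Npr1 and 0.19 (standard error 0.22) for Npr3, both with a limma adjusted p of 0.836. Pde3a and Pde2a, phosphodiesterases that split cyclic nucleotides, had values of 0.14 and 0.13 (standard error 0.10 each), and Mme, the peptide-degrading protease neprilysin, had 0.14 (standard error 0.12). The receptors were named for their role, after values were seen.

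Other genes that respond to stretch and load did not move as one. Of 9 genes 7 had values, 0 passed the adjusted limma test (0.0151% of all genes did), and at an unadjusted p under 0.05 Xirp2 was higher and Rcan1 lower, beside 8.67% of all genes in either direction. Xirp2, an actin-binding protein of the intercalated disc, had 448, 425, 513 and 464 CPM in AAV-CTRP9 hearts 1 to 4, against 113, 351 and 436 CPM in AAV-Luc hearts 1 to 3. AAV-Luc heart 1 was far below the others, and the log2 fold change was 0.84 (standard error 0.35, limma adjusted p = 0.559). Rcan1, a target and inhibitor of calcineurin, averaged 45.9 ± 6.71 CPM in AAV-CTRP9 hearts and 56.6 ± 8.94 CPM in AAV-Luc hearts (SD, n = 4 and 3). Its log2 fold change was -0.30 (standard error 0.14, limma adjusted p = 0.574).

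Acta1, the skeletal alpha-actin that loaded ventricles re-express, was the stretch gene most like Nppa. It had 161, 85.1, 109 and 109 CPM in AAV-CTRP9 hearts 1 to 4, against 211, 94.3 and 146 CPM in AAV-Luc hearts 1 to 3. Acta1 was highest in AAV-Luc heart 1, the groups overlapped, and its log2 fold change was -0.34 (standard error 0.25, limma adjusted p = 0.718). Its correlation with Nppa was r = 0.75 (exact permutation p = 0.0562, adjusted 0.272), rho = 0.64 (exact permutation p = 0.139, adjusted 0.673) and r = 0.67 without AAV-CTRP9 heart 1 and AAV-Luc heart 1. For Myh7, the slow myosin heavy chain, the log2 fold change was 0.14 (standard error 0.09, limma adjusted p = 0.663).

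**Figure D4:**
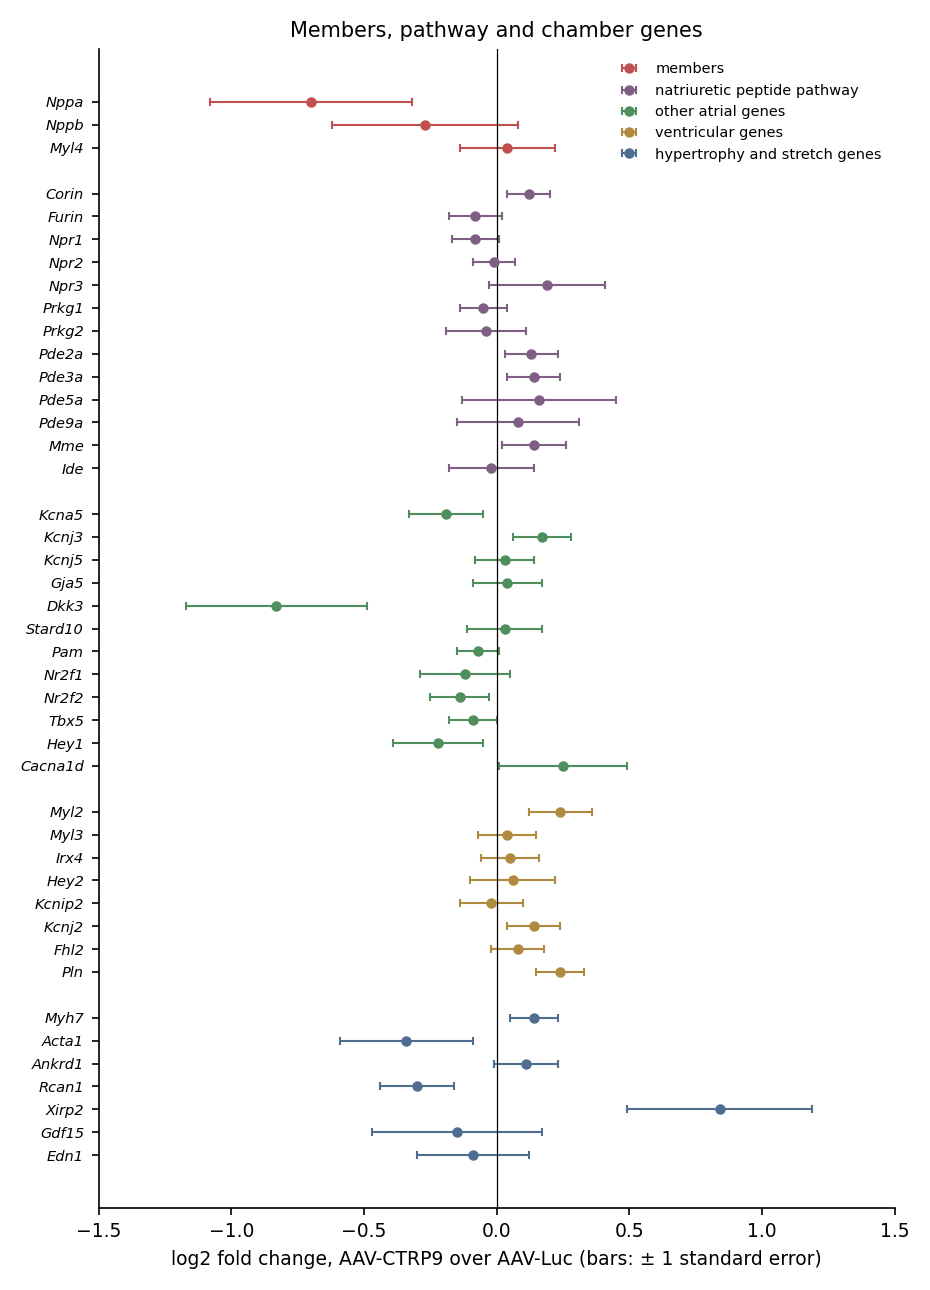
Log2 fold change of AAV-CTRP9 over AAV-Luc (horizontal axis, limma, bars ± 1 standard error) for Nppa, Nppb and Myl4 and for the pathway, atrial, ventricular and stretch genes with values. None passed an adjusted p of 0.05. Nppa (-0.70), Dkk3 (-0.83) and Xirp2 (0.84) lie farthest from 0, with the widest errors beside that of Nppb.

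The genes most like Nppa across the 7 hearts, among 13122 genes with a mean CPM of at least 1, were Gm13054 (its antisense gene), P2ry6, Man2b2, Prkcd and Kirrel, each with an r of at least 0.967. Those most like Nppb were Csrp2, Ehd4, Shc1, Grhpr and Atg7, with r from 0.965 to 0.976. The lists shared 0 genes and held none of the atrial genes. Such short lists from 13122 genes would nearly always turn out so, and nothing is drawn from it. Likeness was ranked over 7 hearts from 13122 genes, so values this high are a description and were not tested.

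In the KO and WT hearts Nppa was listed, and KO hearts held less of it on average. That table holds only transcripts that the authors' own test passed on these hearts, so its values are a description without a test, and 93.5% of its 1230 genes passed a refit with edgeR. Nppa had 903, 1687, 851 and 1341 normalised reads in KO libraries A to D, against 1775, 1449 and 2625 in WT libraries A to C. KO libraries A and C lay below all WT libraries, WT library C lay above all others, and the groups overlapped since KO library B exceeded WT library B. Nppa averaged 1196 ± 395 normalised reads in KO libraries and 1949 ± 607 in WT libraries (SD, n = 4 and 3). The log2 fold change of KO over WT was -0.71 (standard error 0.24) in the edgeR refit. That error draws on the spread of all 1230 listed genes, which were chosen on these hearts. With DESeq2 the log2 fold change was -0.59 (standard error 0.37).

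Unscaled, Nppa had 881, 1597, 973 and 1453 reads in KO libraries A to D, against 1517, 1565 and 2540 reads in WT libraries A to C. Per length and library total these gave at most 120 RPKM in KO libraries and 99.6 to 180 RPKM in WT libraries. Leaving out 1 library at a time moved the log2 fold change to between -0.92 (without KO library B) and -0.43 (without WT library C), and the direction stayed below 0 each time. Of all listed genes 61.1% were lower in KO, which is the background for its direction.

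**Figure D5:**
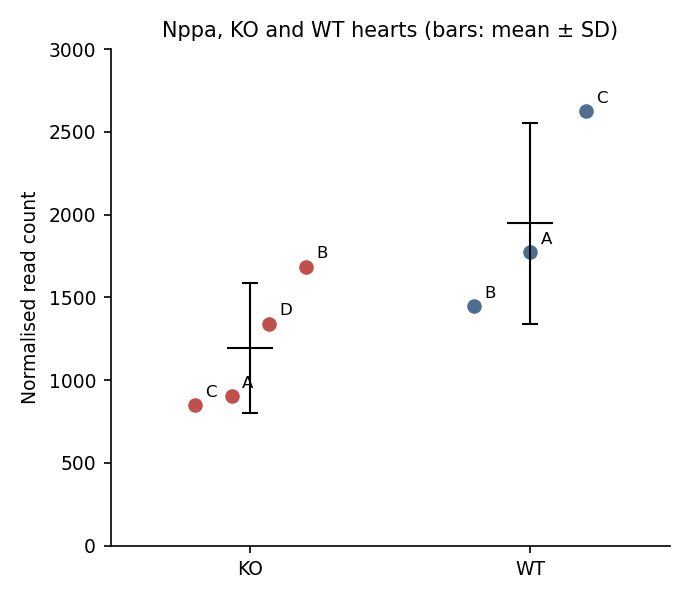
Normalised read count of Nppa (linear axis from 0) in KO libraries (left, n = 4) and WT libraries (right, n = 3). Points are libraries with their letters, and bars give mean ± SD. KO libraries lie between 851 and 1687 and WT libraries between 1449 and 2625.

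Few chamber genes stood beside Nppa in the KO and WT table. Of the 15 further atrial genes 2 were listed, both lower in KO, as were 61.1% of all listed genes. Of the 6 cardiomyocyte markers Actc1 and Myh6 were listed, and both were lower in KO (log2 fold change -0.31, standard error 0.08, and -0.20, standard error 0.09). Their part in the lower Nppa was not tested. Fgf12, an intracellular modulator of sodium channels, averaged 8.21 ± 1.18 normalised reads in KO libraries and 18.1 ± 6.38 in WT libraries, and Nr2f2 averaged 170 ± 26.9 in KO libraries and 215 ± 19.5 in WT libraries (SD, n = 4 and 3). Their log2 fold changes were -1.14 (standard error 0.35) and -0.34 (standard error 0.14). Fgf12 rested on 7 to 10 reads in a KO library and 11 to 26 reads in a WT library. Of the 8 ventricular genes Pln was listed and was higher in KO (0.15, standard error 0.07). The pacemaker markers Hcn4, the main pacemaker channel, and Tbx3, a repressor of the working muscle programme, were listed and lower in KO (-0.51, standard error 0.09, and -0.36, standard error 0.14). Of the natriuretic pathway and stretch lists 0 genes were among those used from this table.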

How the data were processed

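RNA of single mouse hearts was sequenced as single-end reads, which the authors trimmed with FastqCleaner, aligned to mm10 with bowtie2 and annotated with biomaRt. The submitters' processing notes also name DESeq2. The sources used here name no counter, strand setting or version. The AAV table was deposited as log2 CPM (counts scaled to library size) of each Ensembl transcript, with library totals scaled by the authors and a prior count of 1. Whole reads came back for 100% of values (tolerance 1e-06), and the lowest mean of a listed transcript was 0.799 CPM. The KO and WT table holds raw counts of RefSeq transcripts, the mean normalized signal and the summed RPKM as deposited by the authors, from which library factors and totals were worked back. KO and WT columns were named as whole heart, could not be tied to single animals and were lettered. Columns with the authors' own comparisons (fold changes, statistics and p-values) and 14 further per-sample columns were not used.

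The row of highest mean was kept per symbol. The AAV groups were compared with limma 3.58.1 (intensity trend, Benjamini-Hochberg over 13219 genes, threshold 0.05) in R 4.3.3 and by 2-sided exact permutation over 35 splits, and KO with WT by edgeR 4.0.16 as a description. Standard errors of the edgeR refit were worked back from its F statistic. Tests were checked on simulated data. The plan set log2 CPM or counts for the AAV table, and an adjustment over 10 pairs for correlations. Since 3 pairs had values, all 57 relations computed were adjusted together. Alternatives were limma without the trend, library totals, edgeR and DESeq2 1.42.0 on recovered reads, a mean of 1 CPM, a prior count of 0.1, summed rows, removal of a GC trend, Myl4 as covariate and each heart left out. Named genes were the 5 chosen ones, C1qtnf9, up to 4 of smallest p per list with any called gene, and the 5 most like Nppa and Nppb. Genes most like the atrial light chain genes are not named, since the spread of Myl4 lay under its counting error. The genes and lists were chosen with earlier results of these data known. Replicates are separate mice, intervals of reads cover counting error only, and positions and lengths come from GENCODE M21. Figures were drawn with Python 3.11.15 and matplotlib 3.10.9.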

Additional observations from a re-analysis of the deposited data

Results flagged for a closer look

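Among 47 sets of 4 hearts or libraries tested for a sample far from the others, 4 passed Dixon's critical value at 95%, and chance gives about 2.4. Nppa, Nppb, Myl4 and C1qtnf9 were not among them. In AAV-CTRP9 heart 1, Kcnj5, a partner of Kcnj3 in the acetylcholine-gated channel, had 25.6 CPM, against 32.0 to 32.8 CPM in the other three hearts of its group (gap over range 0.888). In the same heart Nr2f2 had 7.87 CPM, against 9.10 to 9.16 CPM (0.953). In AAV-CTRP9 heart 2 Hey2, a ventricular transcription factor, had 4.53 CPM, against 3.96 to 4.06 CPM (0.837). In AAV-CTRP9 heart 4, the heart with the least Nppb, Corin had 110 CPM, against 101 to 102 CPM (0.865).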

How the results depend on the processing

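The fold change of Nppa stayed below 0 and uncalled under 9 alternatives (-1.0 to -0.67) and with each heart left out (-1.26 to -0.37). The value of -1.0 came with Myl4 as covariate (limma adjusted p = 0.0538). Since the order of hearts by Myl4 is not resolved at this depth, nothing is drawn from that fit. The fold change of Nppb was -0.48 to -0.20 under 9 alternatives and -0.47 to 0.09 with a heart left out. Myl4 turned to -0.01 with library totals and ranged from -0.01 to 0.10 with a heart left out. The correlation of Nppa with Myl4 was 0.80 with library totals (exact permutation p = 0.0214), 0.31 with the GC trend removed and 0.23 to 0.81 with a heart left out. That of Nppb with Myl4 was 0.12 with the GC trend removed and 0.19 to 0.84 with a heart left out, and that of Nppa with Nppb was 0.24 to 0.66 with a heart left out. The KO fold change of Nppa was -0.66 with library totals, -0.59 with DESeq2 and -0.92 to -0.43 with a library left out. Of all genes, 2 passed the adjusted threshold in the AAV comparison, 0 without the limma trend (1066 at an unadjusted p under 0.05), 1 with library totals, 61 with DESeq2, 6 with the GC trend removed, 0 with rows summed (1114 unadjusted) and 0 to 150 with a heart left out, 150 of them without AAV-Luc heart 1. The causes were not tested. For the AAV hearts, no paired analysis was possible because the groups share no heart number in the labels. Columns of KO and WT share the numbers 1, 3 and 4, and the labels do not say what these numbers stand for. Deviations from the group means had r = 0.09, -0.19 and -0.43 across 1111 listed genes. Since these genes were chosen on the same hearts, the coefficients cannot settle whether the columns are paired. With the column numbers as a replicate block, an alternative chosen after seeing the data, the KO fold change of Nppa was -0.90. With 294 reads over 7 hearts, depth limits what Myl4 can show.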

Other observations

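Genes around the atrial proteins and their control also gave no call. Of 10 cardiac transcription factors, 0 passed the adjusted limma test, a test that 0.0151% of all genes passed. At an unadjusted p under 0.05 Mef2a was higher in AAV-CTRP9 hearts (log2 fold change 0.22, standard error 0.09), and Srf (-0.21, standard error 0.08) and Tead1 (-0.19, standard error 0.07) were lower, where 4.3% of all genes were higher and 4.36% lower. In the KO and WT table Gata4, Nkx2-5 and Mef2d were listed, all lower in KO, as were 61.1% of the listed genes. Of 6 genes of the sarcoplasmic calcium pump that sarcolipin inhibits and of calcium release, 4 had values and 0 passed, with a median log2 fold change of 0.12. Atp2a2, the pump itself, averaged 3480 ± 105 CPM in AAV-CTRP9 hearts and 3170 ± 309 CPM in AAV-Luc hearts (SD, n = 4 and 3). Of 6 myosin partners 0 passed, and Mylk3, the kinase of cardiac regulatory light chains, was higher at an unadjusted p under 0.05 (0.18, standard error 0.07), beside 4.3% of all genes. Of 8 pacemaker markers 4 had values, and 0 passed at either threshold.

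Of the other marker lists, adipocytes and epicardium had 1 gene each with values, Cidea (-0.14, standard error 0.10) and Wt1 (-0.32, standard error 0.28), and neither passed. Of 5 leukocyte markers 1 passed, Lyz2 (-0.67, standard error 0.07, limma adjusted p = 0.0354), beside 0.0151% of all genes. Ptprc, another of the 5, went the other way (0.25, standard error 0.45, limma adjusted p = 0.899). At an unadjusted p under 0.05, 4 of the 5 leukocyte and 5 of 5 erythroid markers were lower in AAV-CTRP9 hearts, beside 4.36% of all genes. Of 4 smooth muscle genes with values Acta2 was lower at an unadjusted p under 0.05 (-0.41, standard error 0.14). Of 4 endothelial genes 0 passed that threshold, and of 6 cardiomyocyte genes Tnnt2 was higher at it (0.20, standard error 0.09).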
